A study of Mus musculus with 17 samples.

Results

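The genes described here are 6 components of the aryl hydrocarbon receptor pathway, namely Ahr, Arnt, Ahrr, Tiparp, Cyp1a1 and Cyp1b1. They were chosen by name, with their levels in these libraries already known, out of 55450 genes in the bulk table, so their levels are given as a description and without tests. The cells were cultured lines from female MMTV-PyMT mice, in which the promoter of the mouse mammary tumor virus drives the polyoma virus middle T antigen and mammary tumors form and spread. Lines came from the primary tumor in the mammary fat pad (MFP) and from organs with metastases, namely the lung, the bone marrow (BM) and a lymph node (LN), and the organ-derived cells had been sorted as CD44low/EpCAMhigh or CD44high/EpCAMhigh. CD44 is a surface receptor for hyaluronan and EpCAM an adhesion molecule of epithelial cells, and the labels give no CD44 status for MFP. All groups carry the transgene and no further treatment is given in the labels. Bulk RNA-seq was measured in 14 libraries, 2 for each of 7 groups, and the replicates were distinct clonal isolates from different mice. Single-cell RNA-seq was measured in 3 libraries, lung CD44high (lungH), lung CD44low (lungL) and LN CD44high (lymphH), with 1 library each.

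The product of Ahr is a ligand-activated transcription factor that waits in the cytosol in a complex with HSP90 and p23. After it binds a ligand, such as a dioxin, a polycyclic aromatic hydrocarbon or a tryptophan metabolite, it enters the nucleus, pairs with ARNT and binds the xenobiotic response element (XRE) of its target genes. CYP1A1 and CYP1B1 are P450 enzymes among those targets, and CYP1B1 hydroxylates estradiol in breast tissue. AHRR, which competes for ARNT, and TIPARP, which ADP-ribosylates the receptor, are targets that act back on it.

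The promoters of the 4 members that are known targets are shown because the XRE links them to the receptor. Each is the RefSeq window from 250 bases before to 50 bases after the start, on GRCm38.p6, written 5′ to 3′ on the gene's strand, with the XRE core GCGTG, or its reverse complement, in capitals. The windows are chr9:57697363-57697662 on the plus strand for Cyp1a1, chr17:79715012-79715311 on the minus strand for Cyp1b1, chr13:74292282-74292581 on the minus strand for Ahrr and chr3:65528197-65528496 on the plus strand for Tiparp.
Cyp1a1: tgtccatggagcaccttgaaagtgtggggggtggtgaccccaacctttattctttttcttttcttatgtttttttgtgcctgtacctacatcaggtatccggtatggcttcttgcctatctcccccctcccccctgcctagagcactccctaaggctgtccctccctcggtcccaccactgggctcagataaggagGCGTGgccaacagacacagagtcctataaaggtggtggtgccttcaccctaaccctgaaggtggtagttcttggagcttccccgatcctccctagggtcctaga
Cyp1b1: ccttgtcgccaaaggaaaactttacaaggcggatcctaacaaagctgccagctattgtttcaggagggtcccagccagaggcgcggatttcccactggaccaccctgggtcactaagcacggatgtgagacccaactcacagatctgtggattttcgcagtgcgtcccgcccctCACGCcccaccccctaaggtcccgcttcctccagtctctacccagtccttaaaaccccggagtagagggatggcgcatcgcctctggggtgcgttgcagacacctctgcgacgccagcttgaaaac
Ahrr: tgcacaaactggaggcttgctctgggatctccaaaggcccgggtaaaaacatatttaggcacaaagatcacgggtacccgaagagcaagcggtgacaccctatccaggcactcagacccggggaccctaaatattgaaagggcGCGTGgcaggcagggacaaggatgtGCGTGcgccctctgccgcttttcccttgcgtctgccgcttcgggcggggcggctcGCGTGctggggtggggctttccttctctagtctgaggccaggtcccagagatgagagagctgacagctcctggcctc
Tiparp: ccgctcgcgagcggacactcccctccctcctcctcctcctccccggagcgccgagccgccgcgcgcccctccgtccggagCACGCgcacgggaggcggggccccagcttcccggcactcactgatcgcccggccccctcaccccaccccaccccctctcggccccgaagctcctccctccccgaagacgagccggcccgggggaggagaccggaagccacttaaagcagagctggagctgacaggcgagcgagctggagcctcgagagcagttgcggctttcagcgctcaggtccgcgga

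Cyp1a1 held 1 core, at -54 from the start, and Cyp1b1 held 1 on the opposite strand, at -76. Ahrr held 3 cores, at -107, -82 and -27, while Tiparp held 1 on the opposite strand, at -170. The window of Arnt (chr3:95434140-95434439, plus strand) held 1 core, at -29. At least 1 core therefore lay in 5 of the 5 windows found for the members, and in 32.4% of all 32851 windows and 41.7% of 36 windows of other genes of the pathway. The longer form TNGCGTG, which contains the core, was found on either strand in 1 of the 5 windows, that of Ahrr, and in 5.1% of all windows. These matches describe letters in the windows, and binding was not measured.

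Each bulk library held between 11508 and 13052 genes at 1 TPM or more (a transcript level scaled for length and library total), and its read depth is unknown because TPM carries no counts. The 10 epithelial markers summed to between 6752.71 and 7618.64 TPM in MFP and to between 2211.76 and 4453.89 TPM across LN and BM. They summed to only 1.74 to 2.36 TPM in lung CD44low and to 16.01 to 87.59 TPM in lung CD44high, and Epcam, the gene of the sorting marker, was at 0 TPM in both lung CD44low libraries and at 0.23 and 0.86 TPM in lung CD44high. Fibroblast markers summed to 4789.33 to 5230.29 TPM in lung CD44low, with 9 of 10 at 1 TPM or more, against 102.66 to 215.84 TPM in lung CD44high, 7.43 to 46.19 TPM in LN and BM and 0.5 to 1.31 TPM in MFP. The labels thus call the lung cells EpCAMhigh while their Epcam transcript was near 0, and the Cd44 transcript overlapped between lung CD44low (12.22 and 21.62 TPM) and lung CD44high (21.95 and 12.07 TPM). In LN it ran against the labels, at 146.7 and 82.72 TPM in CD44low and 49.04 and 52.26 TPM in CD44high, and in BM it was at 43.77 and 74.9 TPM in CD44low and 50.49 and 49.0 TPM in CD44high. Macrophage markers summed to 11.03 to 14.08 TPM in lung CD44low, the lowest range of the 4 sets, and no endothelial marker reached 1 TPM in any library. In bulk cells, a change in the share of one cell type and a change in RNA per cell cannot be told apart.

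Ahr (ENSMUSG00000019256.17, chr12:35497974-35535038 on GRCm38, minus strand) was at 98.93 and 103.72 TPM in lung CD44low cells. MFP held 5.64 and 5.69 TPM, LN CD44low 3.89 and 2.95 TPM, LN CD44high 1.7 and 0.93 TPM and BM CD44high 0.88 and 0.77 TPM. Both lung CD44high libraries were at 0.25 TPM. Lung CD44low therefore stood far above every other group, and the CD44high cells of the same organ stood lowest of all. BM CD44low was the group with unlike replicates, at 0.73 and 10.66 TPM, a range that spans all libraries of MFP, LN and BM CD44high. Apart from BM CD44low with MFP, neighbours in the order of mean levels had libraries that did not overlap. The library at 10.66 TPM is replicate 2, and its group had the lowest rank correlation between replicates of the 7 (Spearman rho 0.895 over genes, against 0.919 to 0.975 in the others).

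On the log2(TPM + 1) scale, the Ahr level of lung CD44low exceeded that of MFP by 3.94 (SE 0.67), and lung CD44high was lower than lung CD44low by a difference of -6.35 (SE 0.67). The level in lung CD44high differed from MFP by -2.41 (SE 0.67). At 0.25 TPM these values turn on the pseudocount, and with 0.1 in place of 1 the difference from lung CD44low became -8.18 and that from MFP -4.04. The difference of BM CD44low from MFP rested on 1 library. It was -0.57 with both libraries, 0.81 without replicate 1 and -1.95 without replicate 2, and the difference of BM CD44high from BM CD44low moved from -1.30 to 0.08 without BM CD44low replicate 2 and to -2.68 without replicate 1. Fibroblast markers were highest in the same 2 libraries as Ahr, and their part in the Ahr level was not tested. In single cells of lung CD44low (lungL) they were at 9.38 counts per 10000 in the 22 cells with an Ahr count and 23.68 in the others. Epithelial markers were at 1.64 against 0.782. Those 22 cells had a median of 11446.5 counts and the others 3420, and Ahr in lungL was not above lungH (0.194 against 0.204 per 10000). How these cells bear on the bulk level was not tested.

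**Figure D1:**
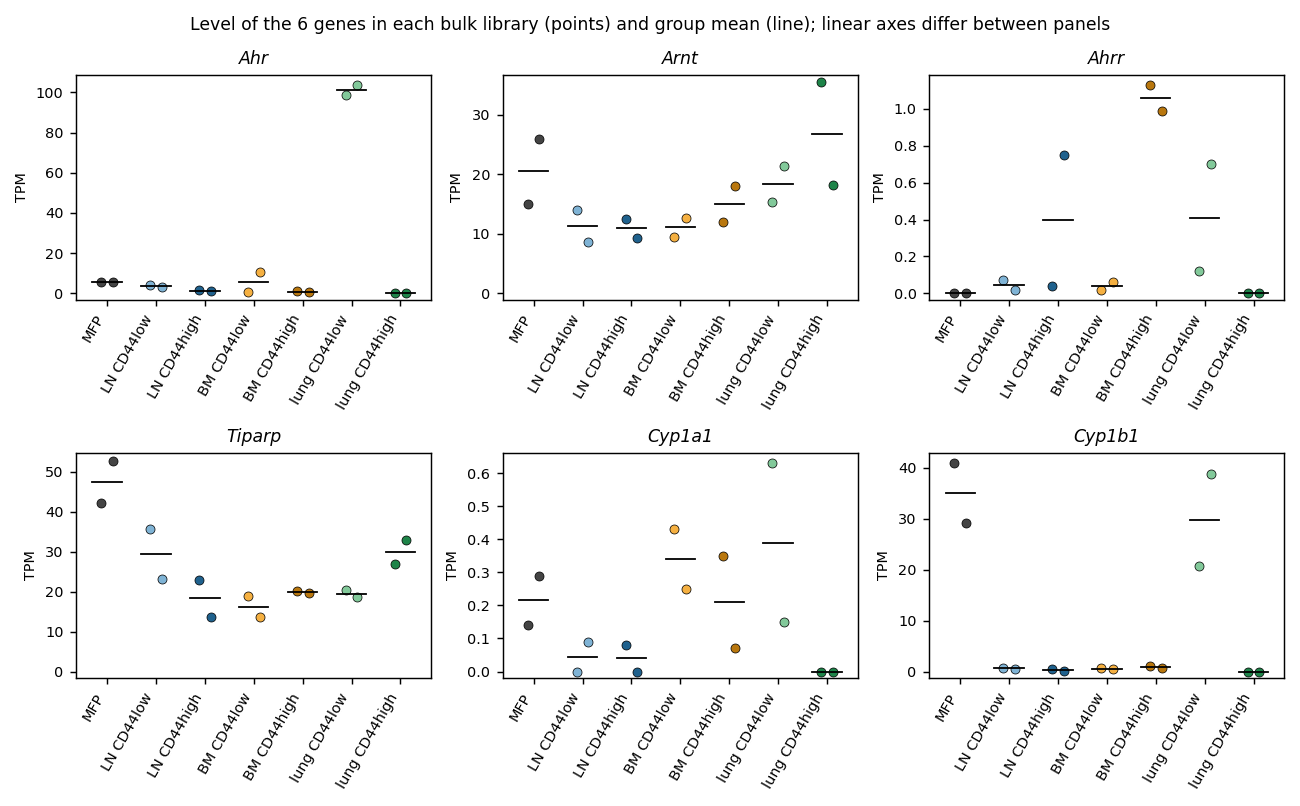
Level of each of the 6 genes in TPM (vertical axis, linear, own range in each panel) in the 7 bulk groups, with 1 point per library and a line at the mean of the 2 libraries of a group. Ahr is at 98.93 and 103.72 TPM in lung CD44low and no higher than 10.66 TPM elsewhere, Cyp1b1 is high in MFP and lung CD44low, and Ahrr and Cyp1a1 stay near or below 1 TPM.

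Arnt (ENSMUSG00000015522.18, chr3:95434388-95497240, plus strand), the partner that the receptor needs on DNA, varied far less. MFP held 14.97 and 26.01 TPM, LN CD44low 14.03 and 8.65 TPM, LN CD44high 12.52 and 9.36 TPM, BM CD44low 9.47 and 12.67 TPM and BM CD44high 11.97 and 17.99 TPM. The lung groups were at 15.4 and 21.44 TPM for CD44low and at 35.44 and 18.21 TPM for CD44high. Neighbouring groups overlapped at every step of the order. All fitted differences of Arnt were within 0.82 of 0 on the log2 scale, with SE 0.41 for a pair of groups. In lung CD44low, Ahr thus exceeded Arnt in TPM, a scale that accounts for transcript length, whereas Arnt exceeded Ahr in both libraries of each other group.

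Ahrr (ENSMUSG00000021575.16, chr13:74211118-74292331, minus strand), the repressor, did not pass the filter of 1 TPM in at least 2 libraries. BM CD44high held its highest levels, 1.13 and 0.99 TPM. Lung CD44low was at 0.12 and 0.7 TPM and LN CD44high at 0.04 and 0.75 TPM, and the libraries of LN CD44low and BM CD44low were between 0.02 and 0.07 TPM. It was listed at 0 in both libraries of MFP and of lung CD44high. The group with the most Ahr was therefore not the group with the most Ahrr.

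Tiparp (ENSMUSG00000034640.9, chr3:65528410-65555518, plus strand) was present in all 14 libraries. The highest levels were those of MFP, 42.09 and 52.76 TPM, which lay above every other library. Lung CD44high was at 26.92 and 32.83 TPM, LN CD44low at 35.59 and 23.13 TPM, BM CD44high at 20.24 and 19.63 TPM and lung CD44low at 20.45 and 18.59 TPM. LN CD44high was at 22.97 and 13.58 TPM and BM CD44low at 18.8 and 13.54 TPM. Against MFP, the differences were -0.70 in LN CD44low, -1.36 in LN CD44high, -1.50 in BM CD44low, -1.20 in BM CD44high, -1.23 in lung CD44low and -0.65 in lung CD44high (SE 0.30 each). The median of all tested genes was itself lower than in MFP by differences of -0.301 in LN CD44high and -0.336 in BM CD44high, and with median-ratio scaling the Tiparp differences in LN CD44low, LN CD44high and BM CD44high became -0.39, -0.84 and -0.65. Lung CD44low and lung CD44high, which were furthest apart in Ahr, differed in Tiparp by 0.58 with CD44high the higher.

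Cyp1a1 (ENSMUSG00000032315.6, chr9:57687928-57703824, plus strand) did not pass the filter either. It was at 0.63 and 0.15 TPM in lung CD44low, at 0.43 and 0.25 TPM in BM CD44low, at 0.14 and 0.29 TPM in MFP and at 0.35 and 0.07 TPM in BM CD44high. LN CD44low was at 0 and 0.09 TPM, LN CD44high at 0.08 and 0 TPM, and lung CD44high was listed at 0 in both libraries. Levels overlapped between neighbours throughout, and the cells with the most Ahr did not separate from BM CD44low or MFP.

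Cyp1b1 (ENSMUSG00000024087.4, chr17:79701537-79715061, minus strand) split the groups in a different way. MFP was at 40.86 and 29.09 TPM and lung CD44low at 20.62 and 38.79 TPM, and these 2 groups overlapped. LN CD44low was at 0.77 and 0.45 TPM, LN CD44high at 0.4 and 0.18 TPM, BM CD44low at 0.61 and 0.55 TPM and BM CD44high at 1.1 and 0.64 TPM, while both lung CD44high libraries were listed at 0. MFP thus held as much Cyp1b1 as lung CD44low with 5.64 and 5.69 TPM of Ahr. On the log2 scale, Cyp1b1 was lower than MFP by differences of -4.47 in LN CD44low, -4.79 in LN CD44high, -4.49 in BM CD44low and -4.26 in BM CD44high (SE 0.33 each), and lung CD44low differed from MFP by -0.28 (SE 0.33), a sign that rests on 1 library, since the value was 0.17 without lung CD44low replicate 1 and -0.72 without replicate 2. With a pseudocount of 0.1, the differences of the LN and BM groups widened to between -5.20 and -6.53. No fold is given for lung CD44high, where the gene was listed at 0.

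**Figure D2:**
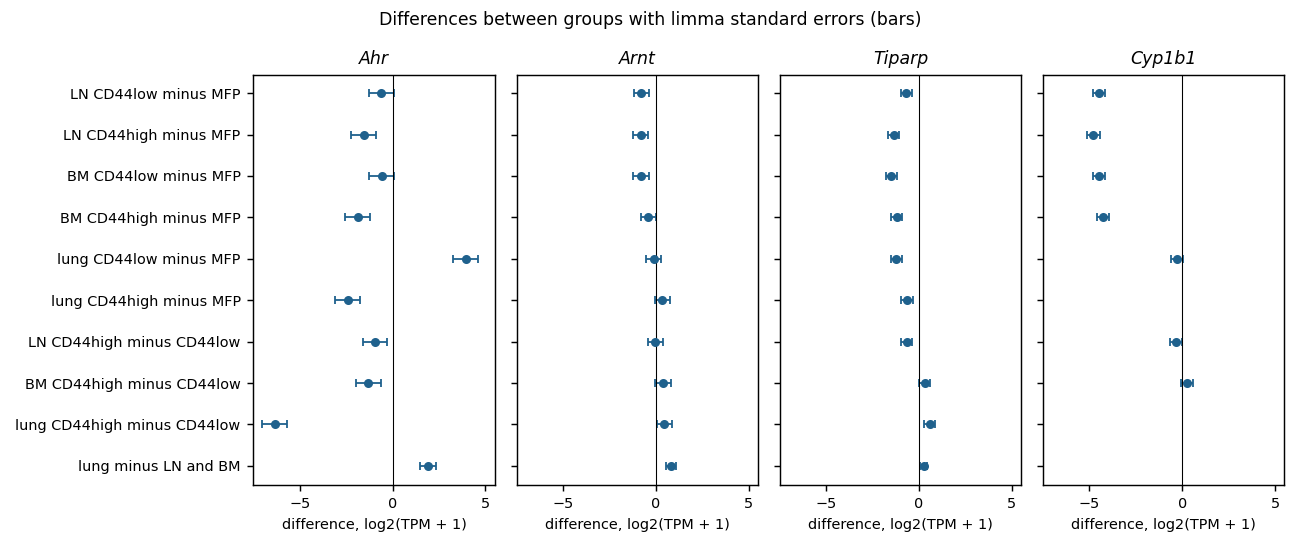
Differences between groups on the log2(TPM + 1) scale (horizontal axis) for the 4 members that passed the filter, with 1 row per comparison, points for the limma estimate and bars for its standard error. Ahr lies far to the right in lung CD44low and far to the left in lung CD44high against CD44low, Arnt stays within 0.82 of 0, and Cyp1b1 is low in LN and BM. The comparisons of Cyp1b1 that use lung CD44high are left out because it was listed at 0 there.

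The call rule used for all genes was an absolute log2 difference over 2 and an adjusted p under 0.05 by limma with Benjamini-Hochberg adjustment. It was passed by 4.79% of the 15348 tested genes in LN CD44low against MFP, 6.12% in LN CD44high, 7.16% in BM CD44low, 7.67% in BM CD44high, 18.8% in lung CD44low and 13.5% in lung CD44high. Of the 4 members tested, 1 was past it in each LN and BM group (Cyp1b1, lower), 1 in lung CD44low (Ahr, higher) and 2 in lung CD44high (Ahr and Cyp1b1, lower). In CD44high against CD44low cells, 0.208% of genes passed in LN, 0.104% in BM and 11.3% in lung, and the members past the rule were 0, 0 and 2 (Ahr and Cyp1b1, lower). The shares in LN and BM moved with single libraries. Without BM CD44low replicate 1, 6.36% of genes passed in BM, with 1 member (Ahr, lower), and without BM CD44low replicate 2 0.0462%. In LN the share was 0.472% and 0.655% without CD44low replicate 1 and 2, and 0.0786% and 0.151% without CD44high replicate 1 and 2. For lung against LN and BM, 12.7% of genes passed and no member did. Since the members were picked from these levels, the counts are a description.

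The remaining pathway was described by 48 further genes in 7 groups by role, and 37 of them passed the filter. Of these, 17 passed the call rule in at least 1 of the 10 comparisons, as did 31.9% of all tested genes. The 17 include Nqo1, Arnt2 and Sim2, which passed the filter through lung CD44low alone and had to differ there, and without them 14 of 34 genes passed. The 14 still include Arntl2 and Stc2, which reached 1 TPM only where they were high, in LN and BM and in lung. Their calls against MFP are part of the counts that follow. Lung CD44low against MFP had 9 higher and 3 lower, or 6 and 3 without Nqo1, Arnt2 and Sim2, where 59.4% of the calls of all genes were higher. The median difference was 0.80 over the 37 genes beside 0.00 over all tested genes. Nqo1, Arnt2 and Sim2 are part of every median given here, and in lung CD44low against MFP they raise it. Lung CD44high against MFP held 3 higher and 4 lower (median 0.34 beside -0.042). LN CD44low held 3 higher and 1 lower, LN CD44high 2 and 2, BM CD44low 3 and 2, and BM CD44high 3 and 3. Within the lung, CD44high against CD44low cells had 1 higher and 7 lower (median -0.18 beside -0.008), or 1 and 4 without them, and of the calls of all genes 22.1% were higher. In LN, 1 gene was lower, and in BM 0 of 37 genes passed by limma, with 3 at an unadjusted p under 0.05. Without BM CD44low replicate 1, which leaves replicate 2 alone in its group with its spread taken from the other groups, 4 pathway genes passed in BM (Aldh3a1, higher, and Ptges3, Ncoa1 and Slc7a5, lower), and without LN CD44low replicate 2 the count in LN rose to 3. Lung against LN and BM had 5 higher and 5 lower (median 0.91 beside 0.196), or 2 and 4 without those genes and without Stc2 and Arntl2, which passed the filter through 1 side of this comparison alone.

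The xenobiotic battery, the detoxifying enzymes known as targets of the receptor, had 5 tested genes, and each passed the rule in at least 1 of the 10 comparisons, beside 31.9% of all genes, in differing patterns. Without Nqo1 they were 4 of 4. Nqo1, a quinone reductase, was at 21.64 and 22.65 TPM in lung CD44low and at no more than 0.31 TPM in any other library. Nqo1, Arnt2 and Sim2 passed the filter only through these 2 libraries, so their levels are a description and no p is given for them. Ugt1a6a, a glucuronosyltransferase, was at 20.35 and 18.97 TPM in lung CD44low and between 0.44 and 4.46 TPM elsewhere, a rise over MFP of 3.69 (SE 0.32, adjusted p 1.07e-05). Its neighbour Ugt1a6b was at 5.71 and 9.31 TPM in lung CD44low and at most 1.91 TPM elsewhere. These 2 genes share exons, so the way reads were split between them is uncertain.

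Aldh3a1, an aldehyde dehydrogenase, went the other way. It was at 1072.97 and 1163.52 TPM in BM CD44high and at 532.32 and 191.7 TPM in BM CD44low, against 30.78 and 41.4 TPM in MFP and 5.01 and 5.88 TPM in lung CD44low. It rose over MFP by 3.13 in BM CD44low (SE 0.45, adjusted p 0.000901, or 0.0794 in a fit of only the groups compared) and by 4.93 in BM CD44high (adjusted p 4.74e-05), and lung CD44low fell by 2.51 against MFP (adjusted p 0.00141). Lung CD44high, at 158.32 and 228.84 TPM, was above lung CD44low by 4.90 (SE 0.45, adjusted p 2.31e-05). Gsta1, a glutathione transferase, was at 63.83 and 94.39 TPM in MFP and at no more than 0.1 TPM in any lung library, with a difference of lung CD44low from MFP of -6.23 (SE 0.73, adjusted p 8.82e-05). It was also lower than MFP in LN CD44high (-3.62, adjusted p 0.00609) and in BM CD44high (-2.77, adjusted p 0.0192). Its call in LN CD44high ended without MFP replicate 2 (-3.34), and that in BM CD44high ended without MFP replicate 1 (-3.05), MFP replicate 2 (-2.50) or BM CD44high replicate 1 (-2.22). Cyp1a2 was listed at 0 in all 14 libraries, and Cyp2s1 passed 1 TPM in a single library, of MFP, at 1.28 TPM.

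**Figure D3:**
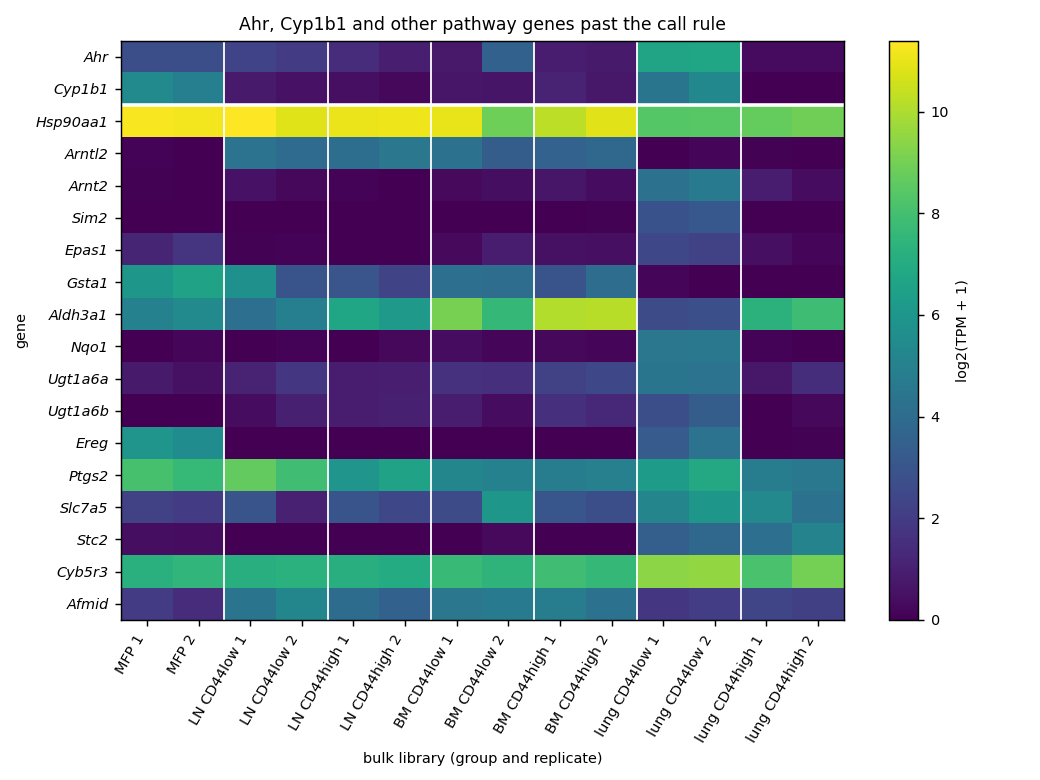
Levels as log2(TPM + 1) (color scale) of Ahr and Cyp1b1 (above the white line) and of 16 other pathway genes that passed the call rule in at least 1 comparison (rows), in the 14 bulk libraries (columns, 2 per group). Nqo1, Ugt1a6a, Ugt1a6b, Arnt2 and Sim2 share the lung CD44low column pair with Ahr, whereas Aldh3a1 is brightest in BM CD44high at 1072.97 and 1163.52 TPM.

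Among the bHLH-PAS relatives of the receptor, 4 of 7 tested genes passed the rule in at least 1 comparison, beside 31.9% of all genes, or 2 of 5 without Arnt2 and Sim2. Arnt2, a paralog of Arnt that can take its place as a partner, was at 18.79 and 24.33 TPM in lung CD44low and at most 0.82 TPM elsewhere. Sim2, a bHLH-PAS factor of development, was at 6.37 and 7.69 TPM in lung CD44low and was listed at 0 in both MFP libraries. Epas1, which encodes the hypoxia factor HIF2A, was at 4.59 and 3.78 TPM in lung CD44low and at 0.37 and 0.16 TPM in lung CD44high, a difference of -2.04 (SE 0.24, adjusted p 0.000158). That call ended when lung CD44low replicate 1 or lung CD44high replicate 2 was left out, each of which gave -1.92. Arntl2, a clock gene, had the opposite pattern by organ. It was at 9.41 to 21.6 TPM across all 8 libraries of LN and BM and at no more than 0.12 TPM in MFP and lung. It passed the filter through LN and BM alone, so no p is given for lung against them.

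The cytosolic complex that holds the receptor was abundant in all groups. Hsp90aa1 was at 2458.24 and 2356.42 TPM in MFP, at 339.08 and 339.84 TPM in lung CD44low and at 411.93 and 485.64 TPM in lung CD44high, lower than MFP by differences of -2.82 (SE 0.54, adjusted p 0.00208) and -2.43 (SE 0.54, adjusted p 0.00601). Lung was also lower than LN and BM (-2.07, adjusted p 0.000433), a call that ended at the fold limit without LN CD44low replicate 1 (-2.00), BM CD44low replicate 1 (-1.80) or BM CD44high replicate 2 (-1.99). Hsp90ab1, the other cytosolic HSP90, ranged from 1408.35 to 3317.54 TPM and Ptges3, the gene of p23, from 73.71 to 472.67 TPM, and with all libraries neither passed the rule by limma, although 4 of their 20 tests had an unadjusted p under 0.05 and 3 an adjusted one. With all libraries none of the 8 coregulators passed either, with 23 of 80 tests under 0.05 unadjusted and 14 adjusted.

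Among other genes that have been reported as targets, 5 of 6 passed the rule in at least 1 comparison, beside 31.9% of all genes. Ereg, a ligand of the EGF receptor family, was at 60.74 and 45.95 TPM in MFP and at 8.67 and 19.5 TPM in lung CD44low. Elsewhere it did not exceed 0.05 TPM. Lung CD44high was lower than MFP with an adjusted p of 9.99e-07, and lower than lung CD44low by a difference of -3.78 (SE 0.32, adjusted p 1.26e-05). Ereg and Cyp1b1 were thus high in the same 2 groups. Stc2, a secreted glycoprotein, was at 9.93 to 32.79 TPM in the 4 lung libraries and at most 0.34 TPM elsewhere. It passed the filter through lung alone, so no p is given for lung against LN and BM. Ptgs2, which encodes the prostaglandin synthase COX-2, was lower than MFP in BM CD44low (-2.73, adjusted p 0.000221), BM CD44high (-2.96, adjusted p 0.000119) and lung CD44high (-3.18, adjusted p 4.26e-05). Its fall in LN CD44high against LN CD44low (-2.03, adjusted p 0.0321) stood close to both limits. It ended without LN CD44low replicate 1 (-1.66), without either LN CD44high library (-1.73 and -2.33), without either library of BM CD44high or of lung CD44high (-2.03 in each case), and with the replicate number as a block (adjusted p 0.0586).

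Slc7a5, an amino acid transporter, was above MFP in lung CD44low (3.46, adjusted p 0.0148), and this call ended without MFP replicate 1 (3.58), MFP replicate 2 (3.34) or lung CD44low replicate 2 (3.05). It was also higher in lung than in LN and BM (2.23, adjusted p 0.00838), a call that ended without LN CD44low replicate 2 (1.99), BM CD44low replicate 1 (1.80) or lung CD44high replicate 1 (1.96).

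The electron donors of P450 enzymes and the enzymes of tryptophan breakdown, which yields ligands of the receptor, had 1 of 3 and 1 of 4 tested genes past the rule in at least 1 comparison, shares close to the 31.9% of all genes. Cyb5r3, cytochrome b5 reductase, was at 690.82 and 746.44 TPM in lung CD44low and at 150.89 and 180.66 TPM in MFP (2.11, SE 0.27, adjusted p 0.000145), a call that ended at 1.99 without MFP replicate 1. Por, which reduces CYP1A1 and CYP1B1 directly, ranged from 34.57 to 81.46 TPM and did not pass. Afmid, the kynurenine formamidase, was at 10.74 to 36.73 TPM across the 8 libraries of LN and BM and at 1.71 to 4.22 TPM in MFP and lung. Lung was lower than LN and BM by a difference of -2.34 (SE 0.22, adjusted p 1.12e-05). Afmid also rose over MFP in the 4 LN and BM groups, by 3.11, 2.09, 2.89 and 2.83, with adjusted p from 0.00027 to 0.00242. The call in LN CD44low ended in a fit of only the groups compared (adjusted p 0.0778), and the 2.09 of LN CD44high fell to 1.82 without MFP replicate 2 and to 1.84 without LN CD44high replicate 1, under the limit. Ido1, which begins the kynurenine route, was listed at 0 in every library, and Tdo2 did not exceed 0.07 TPM.

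The genes most like each member over the 14 libraries were ranked by Pearson r of log2(TPM + 1). For Ahr they were Plscr3 (r 0.982), Pear1 (r 0.967) and Fam149a (r 0.962). Plscr3 was at 97.55 and 80.26 TPM in lung CD44low and at 46.07 TPM in BM CD44low replicate 2, the library in which Ahr also stood apart. For Cyp1b1 they were Arhgef17 (r 0.993), 2210016F16Rik (r 0.989) and Fam49a (r 0.984), all high in MFP and lung CD44low. The closest genes to Tiparp were Strada (r 0.923) and Acot8 (r 0.921), and those to Arnt were Slc43a2 (r 0.894), Acsl1 (r 0.887) and Atxn3 (r 0.88). Among the 4 members, the highest r was that of Ahr with Cyp1b1, 0.747, and the other pairs lay between -0.098 and 0.467. These values describe libraries that come in groups, and a high r can rest on 1 group.

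The same genes were counted in single cells. Cells with more than 250 genes and under 10% mitochondrial counts numbered 1236 in lungH, 348 in lungL and 2562 in lymphH, and doublets were not removed. Their median counts per cell were 557, 4011 and 585, so levels are given as summed counts per 10000 with exact Poisson 95% intervals, which cover counting error only. With 1 library per group there was no test. The cell names in these tables are serial numbers, so barcodes shared between libraries could not be counted. Fibroblast markers were at 22.07 per 10000 in lungL, 0.67 in lungH and 0.13 in lymphH, and epithelial markers at 0.88, 4.28 and 9.73. A few genes carried these sums. In lungH, 4 of the 10 epithelial markers had a count, and Krt8 and Krt18 held 369 and 573 of the 946 counts. Epcam held 3 there, and Cdh1, Cldn3, Cldn4, Cldn7 and Esrp1 had none. In lungL, 8 of the 10 fibroblast markers had a count, and Col1a1 and Col1a2 held 965 and 3192 of the 4901 counts. Dcn, at 4090.71 and 4315.33 TPM in bulk lung CD44low, held 22, and Lum had none.

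Cyp1b1 was at 1.56 per 10000 (1.40 to 1.73) in lungL, from 346 counts in 76 cells. No count was found in lungH, where the exact Poisson interval ran up to 0.0167 per 10000. A floor of 3 counts in lungH equals 0.0136 per 10000. The lungL level was at least 114 times that floor, which is not a bound on the true ratio. In lymphH Cyp1b1 was at 0.0832 (0.0605 to 0.112), from 44 counts in 36 cells. Nqo1 followed the bulk pattern too, with 229 counts in lungL, 1 in lungH and 0 in lymphH. Ugt1a6a and Ugt1a6b, high in bulk lung CD44low, had 0 counts in lungL. Cyp1a1 had 21 counts in 9 cells of lungL and none in the other libraries, and Ahrr had 3 counts, all in 1 cell of lungL. Tiparp was at 0.847, 0.900 and 0.758 per 10000 in lungL, lungH and lymphH, and Arnt at 0.0946, 0.0860 and 0.0719, with intervals that overlapped among all 3 libraries for both genes.

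Ahr did not repeat its bulk pattern. It was at 0.194 per 10000 (0.140 to 0.261) in lungL, from 43 counts in 22 cells, and at 0.204 (0.149 to 0.272) in lungH, from 45 counts in 23 cells, while lymphH was at 0.0946 (0.0702 to 0.125). The lung libraries were thus level in single cells, whereas the bulk lung groups stood at 98.93 and 103.72 against 0.25 TPM. Arnt2 behaved likewise, at 0.248 (0.187 to 0.322) in lungL and 0.222 (0.164 to 0.293) in lungH. By rank over 13651 genes, lungH was nearest to bulk lung CD44high (Spearman rho 0.76) and lungL to bulk lung CD44low (rho 0.746). The labels give a replicate number for lungH and lungL, but not whether it names the same clonal isolate as in bulk. The reason for the difference was not tested.

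**Figure D4:**
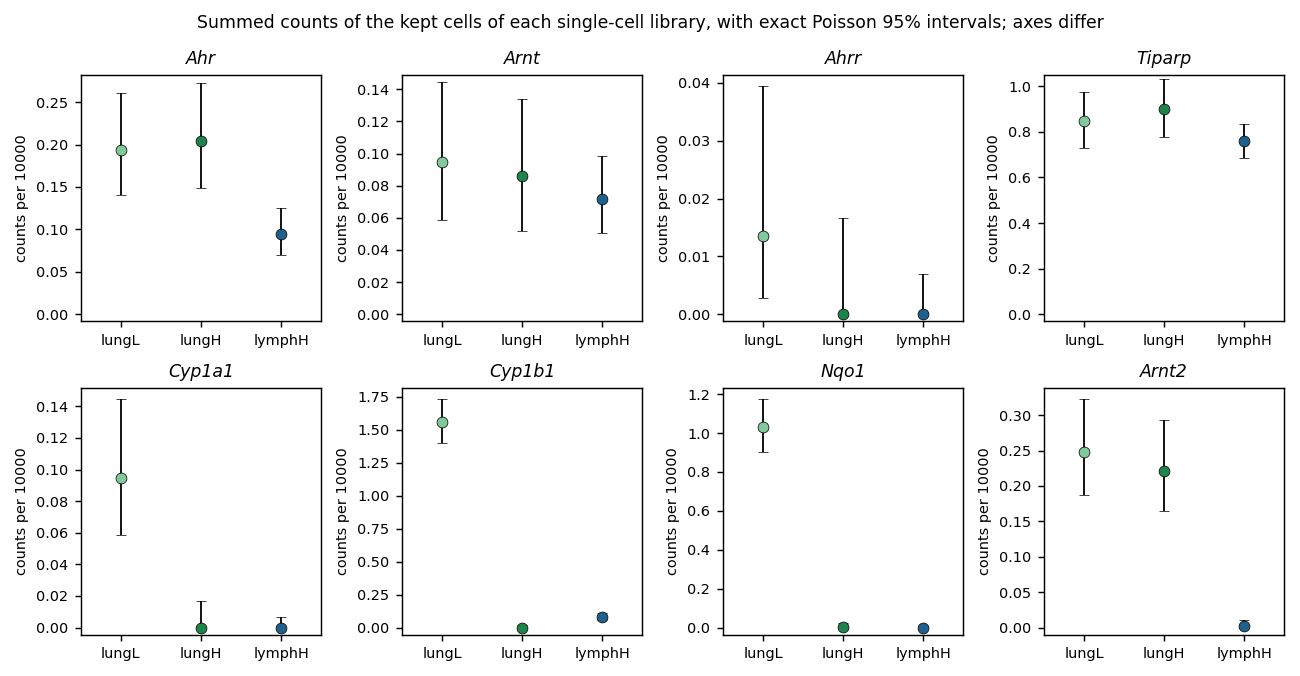
Counts per 10000 (vertical axis, linear, own range in each panel) of the 6 members, Nqo1 and Arnt2, summed over the kept cells of lungL, lungH and lymphH, with 1 point per library and bars for the exact Poisson 95% interval. Cyp1b1, Cyp1a1 and Nqo1 are at or near 0 outside lungL, while Ahr and Arnt2 are level between lungL and lungH.

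Of Ahr, Arnt, Tiparp and Cyp1a1, only Ahr had intervals that did not overlap between lungL cells with and without a Cyp1b1 count. Of 22 cells with an Ahr count, 12 also had Cyp1b1, and Ahr was at 0.331 per 10000 (0.215 to 0.489) in the 76 cells with Cyp1b1 and at 0.123 (0.0727 to 0.194) in the others. In lymphH Ahr was at 0.0644 per 10000 (0.0133 to 0.188) in cells with Cyp1b1 and at 0.0975 (0.0716 to 0.130) in the others, and these intervals overlapped. Split by Ahr instead, the 22 lungL cells with an Ahr count had Tiparp at 2.04 per 10000 (1.52 to 2.68) against 0.695 (0.584 to 0.822). Nqo1 was at 0.479 (0.247 to 0.837) in them against 1.10 (0.960 to 1.26). LungH did not repeat this for Tiparp, at 0.797 (0.456 to 1.295) in 23 cells with Ahr against 0.91 (0.783 to 1.05), and these intervals overlapped. In lymphH Tiparp was at 1.11 (0.824 to 1.45) in 35 cells with Ahr against 0.725 (0.651 to 0.805). LungL cells with an Ahr count had a median of 11446.5 counts and the other lungL cells 3420. Cyp1b1 and Nqo1 leaned opposite ways, since Nqo1 was at 0.663 (0.492 to 0.874) in cells with Cyp1b1 and at 1.22 (1.05 to 1.41) in cells without it. Cells with Cyp1b1 had a median of 10433.5 counts and cells without it 2016.5, and fibroblast markers were at 15.15 per 10000 in the former and 25.63 in the latter. Epithelial markers moved the other way, at 1.94 per 10000 in cells with Cyp1b1 and 0.334 in cells without it, and the part of either marker list in the Cyp1b1 counts was not tested. Counts of one gene came from few cells, which these intervals do not take into account.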

How the data were processed

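Bulk values are the TPM that the authors deposited, made from SMART-seq2 libraries with STAR on mm10 and RSEM on GENCODE annotation. Single-cell values are whole-number counts that the authors deposited per gene and barcode, made on the ddSeq platform and quantified with kallisto without a filter on cells. The authors' own tests used read counts that are not used here. All 55450 gene identifiers were found in GENCODE vM21, and symbols came from the single-cell tables.

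From these, the 15348 genes that reached 1 TPM in 2 or more libraries were fitted as log2(TPM + 1) with limma 3.58.1 in R 4.3.3 (lmFit, eBayes with trend) with a mean for each of the 7 groups (7 residual degrees of freedom), and adjusted over all tested genes by Benjamini-Hochberg. The procedure was tested on simulated data. Named genes were the members, every listed pathway gene past the call rule, the cytosolic complex and the 3 genes most like each member. A few genes that this rule names are not reported here, and counts include them. Members and lists were chosen with earlier results of these data known. Replicate numbers did not pair libraries: the correlation of replicate differences ran from -0.194 to 0.168 over 21 pairs of groups. Alternatives are given in the closing section. With 2 libraries a group, an exact permutation test cannot go below p = 0.333.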

Additional observations from a re-analysis of the deposited data

Results flagged for a closer look

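The genes looked at were the 4 members and 37 pathway genes that passed the filter. For 7 of them, CD44high and CD44low libraries of 1 organ lay fully apart in one direction and those of another organ in the other. The difference between organs was not tested, and of all 15348 tested genes 12.9% showed such opposite directions between LN and lung, 9.51% between BM and lung and 4.41% between LN and BM. These shares are for each pair of organs and the 7 genes are pooled over the pairs, so they cannot be compared directly. Between LN and lung the genes were Tiparp and Afmid. Between BM and lung they were Cyp1b1, Hsp90ab1, Ugt1a6a, Ugt1a6b and Por, and between LN and BM Tiparp, Cyp1b1, Ugt1a6a and Por. Values are CD44high minus CD44low on the log2(TPM + 1) scale.

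Tiparp was at -0.67 in LN, 0.30 in BM and 0.58 in lung. Cyp1b1 was at -0.32 in LN and 0.23 in BM, each within its SE of 0.33 and from levels no higher than 1.1 TPM. In lung it was at 20.62 and 38.79 TPM in CD44low and listed at 0 in CD44high. Afmid was at -1.02 in LN and 0.35 in lung. Ugt1a6a was at -0.54 in LN, 0.70 in BM and -3.26 in lung. Ugt1a6b was at 0.79 in BM and -2.93 in lung, and it shares exons with Ugt1a6a. Hsp90ab1 was at -0.18 in BM and 1.10 in lung, but the median of all genes in BM was -0.203, and with median-ratio scaling the BM value turned to 0.11, so that its opposite direction does not hold there. Por was at -0.50 in LN, 0.12 in BM and -0.60 in lung. The values of the other 6 genes kept their signs with that scaling.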

How the results depend on the processing

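Pathway genes past the call rule numbered 16 against MFP, 9 between CD44high and CD44low and 10 for lung against LN and BM. With no minimum fold change they were 29, 17 and 30 of 37, while the shares of all genes rose from 28.7%, 11.5% and 12.7% to 68.6%, 31.0% and 59.9%. Between CD44high and CD44low in BM alone, the count went from 0 to 4 without BM CD44low replicate 1. Leaving out 1 library at a time gave 12 to 16, 5 to 12 and 8 to 11, and the lowest value of the second range, 5, was reached without lung CD44low replicate 1, where Nqo1, Arnt2 and Sim2 no longer passed the filter. The other settings (another pseudocount, 2 other filters, median-ratio scaling, a fit of only the groups compared) gave 16 to 18, 7 to 9 and 9 to 15. The replicate numbers gave no pairing, with 3 of 21 correlations over 0.1, and with the replicate number as a block the counts were 16, 8 and 10, the lost call being that of Ptgs2 in LN.

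Of 57 single calls, 12 ended when some library was left out and 8 under another setting, and the 8 calls of Nqo1, Arnt2 and Sim2 could not be tested without a lung CD44low library. A fit of only the groups compared ended those of Afmid in LN CD44low (adjusted p 0.0778), of Aldh3a1 in BM CD44low (0.0794) and Ptgs2 in LN (0.457). Median-ratio scaling took Epas1 in lung, Ptgs2 in LN and Slc7a5 in lung under the fold limit (-1.94, -1.81 and 1.97). Against MFP, 39.9% of all calls were higher in LN CD44high and 47.4% in BM CD44high, and 58.6% and 64.9% with median-ratio scaling. Of the member differences recomputed, 726 moved by less than the replicate SD and 34 by more, 11 of them with a pseudocount of 0.1, 7 with median-ratio scaling and 16 with a library left out. The single-cell levels stayed within their intervals in 54 of 54 recomputations. Depth is unknown for TPM, so the precision of values under 1 TPM could not be computed.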

Other observations

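BM CD44low replicate 2, in which Ahr was at 10.66 TPM against 0.73 TPM in replicate 1, differed from its partner in other genes of the pathway as well. These genes were picked after their values were seen. Hsp90aa1 was at 2043.91 TPM in replicate 1 and 469.9 TPM in replicate 2, Ptges3 at 111.69 and 472.67 TPM, Slc7a5 at 5.21 and 64.67 TPM, Ncoa1 at 2.03 and 16.78 TPM and Ncor1 at 17.08 and 68.35 TPM. Cyp1b1, at 0.61 and 0.55 TPM, and Nqo1, at 0.31 and 0.15 TPM, did not move with Ahr in this library. Summed epithelial markers were at 4453.89 and 2390.16 TPM and summed fibroblast markers at 45.71 and 43.64 TPM.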
